A study of Mus musculus with 44 samples.

Results

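Macrophages exposed to an extract of broken cells were set against macrophages exposed to bacterial lipopolysaccharide, both after 72 h. The libraries were chosen by their labels: 3 cultures with the cell extract (replicates 2, 3 and 4) and 4 cultures with LPS (replicates 1 to 4), which are 7 of the 44 libraries in the study. The macrophages came from C57BL/6 mice, were drawn into the peritoneum by thioglycolate, and were taken as the cells that stuck to the dish after 24 h. The extract was made from H9c2, a rat heart cell line, and was given at 10 µg/mL. LPS was given at 100 ng/mL, and 3 control cultures of the same age (replicates 1, 3 and 4), which had neither stimulus, are shown beside them. All cultures grew in DMEM with 10% serum and antibiotics, and all cells came from 1 isolate pooled from several mice. Replicates are therefore separate cultures of the same cells, and the p-values speak of differences between cultures, not between animals.

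LPS, a glycolipid of the outer membrane of Gram-negative bacteria, is sensed by Tlr4 with its co-receptor Cd14. The receptor signals through MyD88 to NF-kB, which switches on inflammatory cytokines, and through TRIF to interferon beta, whose autocrine action switches on interferon-stimulated genes. Damaged cells release nucleic acids, ATP, heat shock proteins and other molecules that can act on some of the same receptors and also call up the machinery by which macrophages take up and digest dead cells. Macrophage states are often sorted between an inflammatory pole marked by Nos2 and Il1b (M1) and an IL-4-type pole marked by Arg1, Mrc1, Chil3 and Retnla (M2).

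The cell extract libraries held 20.5, 2.91 and 10.5 M gene counts (replicates 2, 3 and 4), the LPS libraries 1.10, 10.7, 6.02 and 9.61 M (replicates 1 to 4), and the control libraries 1.79 to 4.47 M. Levels are given in CPM, counts per M counts of the library, after scaling by the trimmed mean of M values. A pair of libraries stood apart from their groups. Cell extract replicate 3 was the shallowest of its group, with reads that could not be assigned to 1 gene at 17.3% against 3.37% and 3.43% in the other cell extract libraries, and mitochondrial counts at 5.75% against 2.64% and 2.79%. The share of such reads was highest in replicate 3 of the LPS group (11.1%) and of the control group (17.3%) at 72 h too, and was 12.2% to 16.1% in replicate 3 of 4 groups at 8 h or 24 h. The labels do not say what the replicate numbers share, and the part of this feature in the results was not tested. LPS replicate 1 was the shallowest of the 10 libraries described here and lay alone on the second principal component of their levels, at 110.6 against −30.3 to −13.2 for the other LPS libraries. Macrophage markers were present in all 10 libraries but did not move alike. Adgre1, which encodes the F4/80 antigen, stood at 1078 to 1215 CPM with cell extract, 483 to 827 CPM with LPS and 137 to 168 CPM in controls. Mean levels of Csf1r were 306, 289 and 157 CPM in the same order, and those of Itgam 698, 539 and 318 CPM. Cd68 and Spi1 were highest in controls, with means of 784, 717 and 1108 CPM for Cd68 and 104, 113 and 148 CPM for Spi1. Cd14 and Fcgr1 were highest with LPS, with means of 293, 1476 and 64.3 CPM for Cd14 and 59.8, 93.7 and 40.2 CPM for Fcgr1. Lyz2 was highest with cell extract, with means of 24866, 13754 and 12203 CPM.

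Of 14537 genes tested at 72 h, 1604 were higher with cell extract than with LPS (11.0%) and 1651 were lower (11.4%), at an adjusted p under 0.05. At least 2-fold higher were 523 genes (3.60%) and at least 2-fold lower were 775 (5.33%). The median log2 difference over all tested genes was −0.07. In 2880 of the called genes every cell extract library lay on the same side of every LPS library. Genes without a call were not counted in this way, and the separation rests on the same values as the calls, so it does not add to them. The number of lower genes depended on the libraries used: without cell extract replicate 3 it was 1059, and without both libraries that stood apart it was 997 beside 1427 higher genes. Without cell extract replicate 4 the number of higher genes was 1065.

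The 12 largest falls and 12 largest rises were taken from genes whose cell extract and LPS libraries did not overlap, so that separation was fixed by the choice. Among the genes that fell furthest with cell extract, relative to LPS, were several for secreted and surface proteins of myeloid cells, such as Trem1 and Camp. Stfa3 (chr16:36450537-36455392, minus strand, GRCm38), which encodes a stefin that inhibits cysteine proteases, had 0.688, 1.50 and 0.373 CPM in the cell extract libraries, against 46.3, 42.5, 43.6 and 67.5 CPM in the LPS libraries. The groups did not overlap, and Stfa3 was 72.9-fold lower with cell extract (log2 difference −6.19 ± 0.52 SE, adjusted p = 1.03e-11, edgeR quasi-likelihood test). Trem1 (chr17:48232768-48246924), a receptor that amplifies inflammatory signalling in myeloid cells, had 0.596, 0.375 and 0.560 CPM with cell extract, against 27.0, 24.1, 24.5 and 29.1 CPM with LPS. Every cell extract value was far under every LPS value, a 46.1-fold difference (log2 −5.53 ± 0.49 SE, adjusted p = 3.76e-11). Ubd, which encodes the ubiquitin-like modifier FAT10, had 3.58, 10.1 and 5.04 CPM with cell extract, against 189.9, 139, 153 and 165 CPM with LPS. It was 30.5-fold lower (adjusted p = 3.04e-13), with no overlap. Camp, which encodes the cathelicidin antimicrobial peptide, had 0.367, 0 and 0.840 CPM with cell extract against 10.6, 7.10, 8.79 and 12.9 CPM with LPS, and its log2 difference was −4.29 ± 0.58 (SE) with all libraries and −4.97 without cell extract replicate 4. Tnfrsf9, the 4-1BB receptor of activated lymphocytes and myeloid cells, was 14.6-fold lower (adjusted p = 7.61e-10). The rest of the 12 largest falls included Ly6i and Ly6a, taken up below with their family, and Susd2, 2010005H15Rik, Scin and Gp6, which were 15 to 18.2-fold lower. Scin, which encodes the actin-severing protein scinderin, rested on 6 counts over the 3 cell extract libraries, and its log2 difference of −3.96 became −4.93 without cell extract replicate 2. Gp6 rested on 5 counts and 2010005H15Rik on 8 over the same libraries, so their folds are uncertain too. Fcnb, which encodes a ficolin, had 1 count over the 3 cell extract libraries and 1.93 to 3.08 CPM in the 4 LPS libraries, so no fold is given.

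The largest rise was Slc13a3 (chr2:165405028-165473230, minus strand), which encodes a sodium-coupled carrier of succinate and other dicarboxylates. It had 31.5, 30.4 and 27.2 CPM with cell extract, against 0, 0.748, 0.366 and 0.233 CPM with LPS. The control cultures, at 0.212, 0.711 and 0.535 CPM, stood with the LPS cultures. Slc13a3 was 64.3-fold higher with cell extract than with LPS (log2 6.01 ± 0.49 SE, adjusted p = 4.49e-12), and the log2 difference was 6.74 without LPS replicate 2. The transcript 4930438A08Rik, whose role is not annotated here, had 13.2, 11.3 and 13.3 CPM with cell extract, against 0, 0.187, 0.732 and 0.466 CPM with LPS (30.8-fold, adjusted p = 1.37e-08). Marco, a scavenger receptor for bacteria and particles, had 185, 187 and 179.8 CPM with cell extract, against 20.2, 13.2, 16.5 and 17.0 CPM with LPS. It was 11.4-fold higher (adjusted p = 1.47e-11) without overlap, and controls had only 1.48 to 6.42 CPM. Igfbp3, which encodes a secreted protein that binds insulin-like growth factors, had 18, 21 and 16.1 CPM with cell extract, against 1.93, 1.50, 1.10 and 1.40 CPM with LPS (12.9-fold, adjusted p = 1.28e-09). The controls, at 11.0 to 22.3 CPM, overlapped the cell extract cultures in Igfbp3. Slc27a6, a fatty acid transport protein, was 11.1-fold higher (adjusted p = 6.95e-10). The remaining 7 of the 12 largest rises were 7.10 to 10.4-fold higher: Nlrp1b, an inflammasome sensor, Slit3, a secreted guidance ligand, Hey1, a Notch target, Adamts5, a matrix protease, Cyp7b1, an oxysterol hydroxylase, Slc36a2, an amino acid carrier, and Neto2. These 7 had at most 9.52 CPM in any cell extract library. The log2 difference of Nlrp1b, 3.37 with all libraries, was 2.71 without LPS replicate 2 and 4.94 without LPS replicate 4, and that of Cyp7b1, 2.85, was 3.70 without LPS replicate 4.

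**Figure D1:**
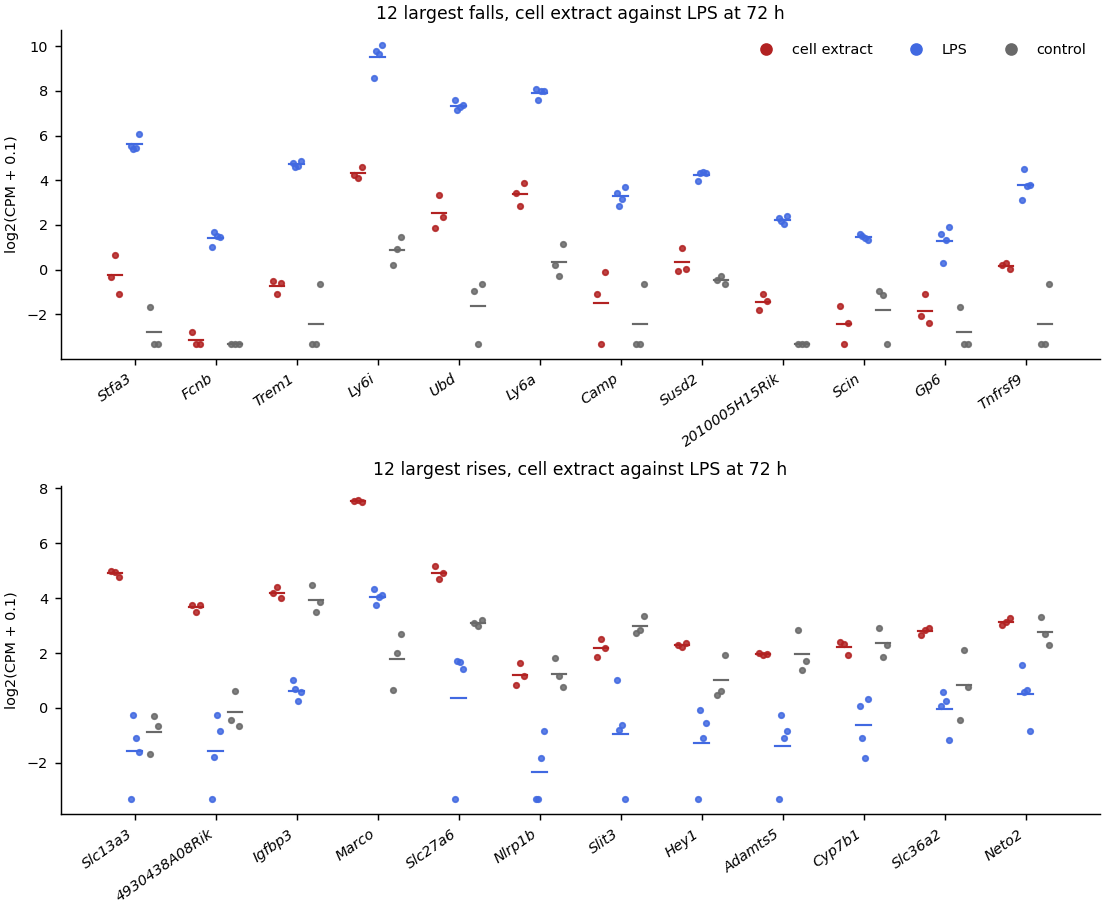
Level of the 12 genes with the largest falls (top) and the 12 with the largest rises (bottom) in each 72 h library, as log2(CPM + 0.1) on the vertical axis, with cell extract in red, LPS in blue and control in grey; each point is a library and each short line a group mean. Only genes whose red and blue points do not overlap could be chosen, so the separation of the 24 genes was fixed by the choice. The grey points of Slc13a3 lie with the blue ones while those of Igfbp3 lie with the red ones.

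Among the named markers of the M1 pole, Nos2 and Il1b were clearly lower with cell extract than with LPS, whereas the classical cytokines Il6, Tnf and Il12b did not pass the test. Nos2, the inducible nitric oxide synthase, had 40.1, 47.3 and 58.1 CPM with cell extract, against 296, 620.4, 800.1 and 578 CPM with LPS and 1.27 to 8.56 CPM in controls. It was 11.9-fold lower than with LPS (log2 −3.57 ± 0.49 SE, adjusted p = 5.19e-07), and no libraries overlapped. Il1b, the secreted interleukin 1 beta, had 41.5, 46.9 and 56.3 CPM with cell extract, against 404, 594, 501 and 711 CPM with LPS (11.5-fold lower, adjusted p = 5.16e-04). Tnf had 60.5, 64.2 and 77.2 CPM with cell extract, against 58.8, 125, 257 and 221 CPM with LPS, so that the groups overlapped at LPS replicate 1 (log2 −1.32 ± 0.63 SE, adjusted p = 0.128). Il6 had 13.8, 15.8 and 14.8 CPM with cell extract, against 20.2, 22.4, 38.3 and 28.3 CPM with LPS (log2 −0.93 ± 0.83 SE, adjusted p = 0.446). Il12b, which encodes the p40 subunit of interleukins 12 and 23, had 3.30 to 5.14 CPM with cell extract, against 5.70 to 11.6 CPM with LPS (log2 −1.11 ± 0.63 SE, adjusted p = 0.211). Il6 and Il12b passed the test when only the cell extract and LPS libraries at 72 h were fitted (adjusted p = 0.0162 and 0.0341). Of 25 tested M1 mediators, 16 fell and 1, Marco, rose, with a median log2 difference of −1.32. The shares over all tested genes were 11.4% lower and 11.0% higher. Other members that fell include the prostaglandin synthase Ptges and the co-stimulatory ligand Cd86 (1.88-fold, adjusted p = 1.18e-04). Acod1, the enzyme that makes itaconate, was named after its values were seen: it had 501, 569.7 and 565 CPM with cell extract, against 428, 472, 546 and 590.3 CPM with LPS and 10.4 to 30.6 CPM in controls, and the cell extract and LPS groups overlapped (log2 0.10 ± 0.64 SE, adjusted p = 0.939).

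Markers of the M2 pole did not move as 1 block. Arg1, the arginase that competes with Nos2 for arginine, had 736, 799 and 777 CPM with cell extract, against 318, 227, 273 and 183 CPM with LPS (3.10-fold higher, log2 1.63 ± 0.32 SE, adjusted p = 2.02e-04). Controls had 89.9, 286 and 226 CPM of Arg1, the first far under the LPS range and the other 2 within it. Mrc1, the mannose receptor, had 108, 107 and 102 CPM with cell extract, against 19.3, 14.5, 37.0 and 21.2 CPM with LPS (4.57-fold higher, adjusted p = 2.40e-08), and both were under the controls at 198 to 285 CPM. Chil3, a chitinase-like secreted protein, had 66.4, 168 and 115 CPM with cell extract, against 432, 70.3, 427 and 104 CPM with LPS, a spread that left the groups overlapping (adjusted p = 0.15). Retnla, which encodes the secreted protein Fizz1, had 1.59 to 1.88 CPM with cell extract, against 1.68 to 9.64 CPM with LPS, and also overlapped (adjusted p = 0.351). Of 29 tested M2 markers 5 rose, namely Arg1, Mrc1, Cd36, Pparg and Myc, and 7 fell, with a median log2 difference of −0.45. By comparison, 11.0% of all tested genes were higher and 11.4% lower. One of the 7, the chemokine Ccl17, had no count with cell extract and at most 0.233 CPM with LPS.

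Interferon-stimulated genes were lower with cell extract almost throughout, although they stood above the controls. Of 38 tested antiviral members 31 fell and none rose, with a median log2 difference of −1.35, against 11.4% of all genes lower. Herc6, an E3 ligase that attaches Isg15 to proteins, was 3.30-fold lower (adjusted p = 5.48e-10). Oasl2, of the 2′-5′-oligoadenylate synthetase family, was 3.25-fold lower (adjusted p = 3.98e-09). Isg15 itself, named after its values were seen, had 119, 149 and 130.2 CPM with cell extract, against 1291, 588, 534 and 686 CPM with LPS (5.84-fold, adjusted p = 4.92e-04). The summed level of the antiviral list was 3381 to 3783 CPM with cell extract, 9619 to 12142 CPM with LPS and 985 to 1117 CPM in controls. Leaving out any library in turn left 27 to 31 members lower.

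The interferon-inducible GTPases, which attack the vacuoles of intracellular microbes, fell more evenly: 17 of 18 tested members were lower and none higher, with a median log2 difference of −2.06. Over all tested genes 11.4% were lower. The GTPase that was not called, Gvin1, had at most 3.11 CPM. Igtp had 58.8, 57.8 and 67.2 CPM with cell extract, against 208, 271, 289 and 338 CPM with LPS and 11.0 to 16.6 CPM in controls (4.53-fold lower, adjusted p = 1.73e-10). Tgtp1 had 6.92, 6.00 and 9.71 CPM with cell extract, against 28.9, 75.1, 69.4 and 79.5 CPM with LPS (8.46-fold lower, adjusted p = 8.41e-11). Irgm1, which regulates the other GTPases of the family, had 174, 171 and 185 CPM with cell extract, against 484, 543, 575 and 629.6 CPM with LPS (3.16-fold lower, adjusted p = 9.02e-11). No cell extract library overlapped an LPS library in any of the 3. Tgtp1 is nearly identical to its neighbour Tgtp2, and the Gbp genes resemble each other, so counts may be split among them.

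The promoters of these 3 GTPases are printed for their matches to the core letters of the interferon-stimulated response element, which the interferon regulatory factors recognise. Each runs from 250 bases before to 50 bases after the RefSeq transcription start (GRCm38.p6), written 5′ to 3′ on the gene's strand, and capitals mark matches to the motif GAAA, any 2 bases, GAAA. Igtp (chr11:58199306-58199605, plus strand) has a match that begins 34 bases before the start, Tgtp1 (chr11:48992197-48992496, minus strand) has it 77 bases before, and Irgm1 (chr11:48871371-48871670, minus strand) has 2 overlapping matches that begin 30 and 24 bases before.
Igtp: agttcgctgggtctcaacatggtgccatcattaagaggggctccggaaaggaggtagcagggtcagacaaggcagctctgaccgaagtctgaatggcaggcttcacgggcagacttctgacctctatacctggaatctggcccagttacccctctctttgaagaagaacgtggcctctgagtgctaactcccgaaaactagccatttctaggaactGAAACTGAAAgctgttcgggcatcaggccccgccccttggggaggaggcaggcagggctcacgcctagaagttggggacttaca
Tgtp1: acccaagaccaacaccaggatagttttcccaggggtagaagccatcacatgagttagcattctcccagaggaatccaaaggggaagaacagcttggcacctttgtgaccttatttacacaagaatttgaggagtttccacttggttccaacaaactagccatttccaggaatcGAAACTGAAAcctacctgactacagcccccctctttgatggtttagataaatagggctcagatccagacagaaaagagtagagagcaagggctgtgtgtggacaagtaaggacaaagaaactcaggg
Irgm1: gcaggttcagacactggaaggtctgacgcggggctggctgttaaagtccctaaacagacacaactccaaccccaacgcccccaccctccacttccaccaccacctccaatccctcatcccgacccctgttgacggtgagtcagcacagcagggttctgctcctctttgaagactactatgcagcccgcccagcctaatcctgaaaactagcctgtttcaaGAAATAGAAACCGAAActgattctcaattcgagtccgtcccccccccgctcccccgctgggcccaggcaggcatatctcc

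Both strands were searched in the 300-base promoters of the 10413 tested genes that had one. The interferon motif was found in 4.06% of all of them, in 9.28% of the genes that were lower with cell extract (116 of 1250) and in 14.0% of those lower by at least 2-fold. Among genes that were higher it was in 3.26%, and among those higher by at least 2-fold in 3.99%. In the GTPase list 9 of 10 promoters held it (90.0%), in the antiviral list 14 of 27 (51.9%) and in the MHC class I list 5 of 17 (29.4%). A motif of the antioxidant response element type, TGACNNNGC, where N is any base, was in 16.9% of all promoters searched. It was in 14.8% of those of lower genes, 19.5% of those of higher genes and 9 of 18 in the Nrf2 list (50.0%). A match is a string of letters and does not show binding.

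Genes for antigen presentation were lower with cell extract. The counts of this paragraph stand beside 11.4% of all tested genes lower and 11.0% higher. Of 11 tested MHC class II genes 9 fell and none rose, with a median log2 difference of −1.98. H2-Ab1, the beta chain of the I-A molecule, had 208, 173 and 187 CPM with cell extract, against 675, 1116, 1105 and 1181 CPM with LPS (5.39-fold lower, adjusted p = 1.49e-10). H2-Aa and H2-Eb1 were 4.68 and 4.67-fold lower, and the cell extract libraries, at 165 to 186 CPM of H2-Aa, overlapped the controls at 116 to 179 CPM. Ctss, the cathepsin that trims the invariant chain, was named after its values were seen: it had 15117 to 15718 CPM with cell extract and 15825 to 19612 CPM with LPS (adjusted p = 0.285). It made up most of the list's summed level of 15843 to 16522 CPM with cell extract and 19383 to 23545 CPM with LPS. Of 20 tested MHC class I genes 18 fell and none rose (median log2 −1.33). H2-K1, a classical class I heavy chain, had 2854, 2478 and 2834 CPM with cell extract, against 4586, 8394, 6670.4 and 7943 CPM with LPS (2.53-fold lower, adjusted p = 2.75e-07). H2-Q7 was 3.72-fold lower, with the reservation that near-identical Q genes can share its reads. Of 15 costimulatory and checkpoint ligands 5 fell, Cd80 among them (2.79-fold, adjusted p = 1.89e-07), and 1 rose: Vsir, the VISTA checkpoint, had 208, 178 and 197 CPM with cell extract, against 85.8, 111, 109 and 88.1 CPM with LPS. The 5 lower ligands became 2 without LPS replicate 3 or LPS replicate 4, and 3 without cell extract replicate 2, 3 or 4.

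In the pathway of LPS itself, the receptor Tlr4 did not pass the test, whereas its co-receptor fell. Tlr4 was named after its values were seen and had 151, 152 and 148 CPM with cell extract, against 92.5, 142, 131 and 127 CPM with LPS (log2 0.27 ± 0.21 SE, adjusted p = 0.376). Cd14 had 272, 279 and 327 CPM with cell extract, against 1641, 1347, 1443 and 1472 CPM with LPS and 52.4 to 77.6 CPM in controls (5.04-fold lower, adjusted p = 1.14e-11). Tlr2, which senses bacterial lipoproteins, was 2.65-fold lower (adjusted p = 8.12e-04). Tlr13, an endosomal sensor of bacterial ribosomal RNA, was 2.1-fold higher (adjusted p = 1.15e-04). Of 21 tested genes of Toll-like receptor signalling 4 rose, namely Tlr8, Tlr9, Tlr13 and Ticam2, and 3 fell, namely Tlr2, Cd14 and Myd88. The 4 became 2 without cell extract replicate 2. Over all tested genes 11.0% were higher and 11.4% lower.

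Downstream, 16 of 24 tested NF-kB subunits and feedback genes fell and none rose (median log2 −0.81), against 11.4% of all tested genes lower and 11.0% higher. Traf1, an adaptor of tumour necrosis factor receptors, had 17.6, 14.6 and 19.7 CPM with cell extract, against 91.6, 137, 144 and 150.0 CPM with LPS (7.52-fold lower, adjusted p = 3.36e-11). Tnip1, a partner of the A20 brake, was 2.42-fold lower (adjusted p = 4.43e-07) and Cflar, a caspase 8 inhibitor, 1.92-fold lower (adjusted p = 3.90e-07). Of the chemokines that draw neutrophils, Cxcl1, Cxcl2 and Cxcl3 fell and Cxcl5 rose among 5 tested. Cxcl1 had 12.2, 15.8 and 16.0 CPM with cell extract, against 18.3, 90.3, 184 and 143 CPM with LPS (7.75-fold lower, adjusted p = 2.39e-05), and LPS replicate 1 lay just above the cell extract libraries. Cxcl5 was not called without cell extract replicate 2. Of the chemokines induced by interferon, which attract T cells, Cxcl9 was 5.43-fold lower (adjusted p = 1.10e-05) and Cxcl11 7.38-fold lower (adjusted p = 2.26e-06). Cxcl10 had 51.2, 42.4 and 88.4 CPM with cell extract, against 125, 172, 166 and 189 CPM with LPS, and did not pass (log2 −1.42 ± 0.77 SE, adjusted p = 0.186). With only the cell extract and LPS libraries at 72 h in the fit its adjusted p was 0.00513.

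Among 9 tested inflammatory CC chemokines 4 fell and 1 rose, against 11.4% of all tested genes lower and 11.0% higher. Ccl5, the RANTES chemokine, had 215, 317 and 307 CPM with cell extract, against 4065, 2051, 3210.3 and 3223 CPM with LPS and 7.84 to 34.3 CPM in controls (11.2-fold lower, adjusted p = 5.30e-05). Ccl9 was 5.19-fold lower (adjusted p = 3.11e-10). Ccl6 had 2204, 1836 and 1879.7 CPM with cell extract, against 354, 315, 350.1 and 394 CPM with LPS (5.58-fold higher, log2 2.48 ± 0.16 SE, adjusted p = 1.01e-14). The controls of Ccl6, at 1639 to 1905 CPM, overlapped the cell extract libraries.

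Of 15 tested genes of the interleukin 1 family 9 fell and 2 rose, with a median log2 difference of −1.22. The agonist Il1b and both antagonists moved the same way: Il1rn, the receptor antagonist, had 105, 123 and 131 CPM with cell extract, against 277, 438, 392 and 516 CPM with LPS (3.40-fold lower, adjusted p = 6.63e-10), and Il18bp, which neutralises interleukin 18, was 4.81-fold lower (adjusted p = 4.67e-10). Il1r1, the signalling receptor, had 13.3, 13.9 and 13.1 CPM with cell extract, against 1.93, 4.02, 4.58 and 4.08 CPM with LPS (3.31-fold higher, adjusted p = 1.00e-06), and 1 of the 2 rises lost its call without cell extract replicate 2. In the prostaglandin and leukotriene pathway 4 of 16 rose and 3 fell, beside 11.0% higher and 11.4% lower over all tested genes. Ptges, the inducible synthase of prostaglandin E2, had 56.8, 46.9 and 69.1 CPM with cell extract, against 332, 497, 497 and 574 CPM with LPS (8.21-fold lower, adjusted p = 3.36e-11). Ptgs1, the constitutive cyclooxygenase, was 3.01-fold higher (adjusted p = 2.91e-10) and Hpgds, the synthase of prostaglandin D2 in myeloid cells, 3.45-fold higher (adjusted p = 6.11e-09). Without LPS replicate 1, 7 members rose and 5 fell. Of 20 genes of cytokine feedback 6 fell, Socs3 among them, with 65.3, 63.4 and 66.8 CPM with cell extract against 319, 172, 188 and 186 CPM with LPS (3.27-fold lower, adjusted p = 2.09e-04). Of the 2 that rose, Tsc22d3, which encodes the glucocorticoid-induced leucine zipper, was 2.33-fold higher (adjusted p = 5.08e-10), and 1 of the 2 calls was lost without LPS replicate 2 or cell extract replicate 4.

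Acute-phase and granule proteins were mostly lower with cell extract. Of 13 tested members 8 fell and 1 rose, with a median log2 difference of −1.83, against 11.4% of all tested genes lower and 11.0% higher. S100a8, a subunit of calprotectin, had 30.0, 35.3 and 40.2 CPM with cell extract, against 517, 290.3, 367 and 398 CPM with LPS and 39.9 to 55.7 CPM in controls (11.1-fold lower, adjusted p = 2.71e-12). Slpi, an inhibitor of neutrophil elastase, was 3.55-fold lower (adjusted p = 6.25e-09). Saa3 and Lcn2, named after their values were seen, were 3.81 and 4.15-fold lower (adjusted p = 3.56e-05 and 1.48e-04). Saa3, an acute-phase serum amyloid, had 3397, 3746 and 4367 CPM with cell extract, against 20298, 12647, 11459 and 14073 CPM with LPS. The riser was Wfdc17, a small secreted protein with a whey acidic protein domain, at 471 to 633 CPM with cell extract and 149.6 to 282 CPM with LPS. Without LPS replicate 4, 2 members rose.

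Several of these genes are also made by neutrophils, and the neutrophil marker list moved with them. Its summed level was 59.6 to 72.1 CPM with cell extract, 317 to 538 CPM with LPS and 55.3 to 83.5 CPM in controls, and of its 5 tested genes S100a8 and Camp fell, Csf3r rose, and Cxcr2 and Retnlg were not called. The call of Csf3r was lost without LPS replicate 2, without cell extract replicate 2 or 4 and without both libraries that stood apart. Other neutrophil markers failed the filter on low counts. Over whole groups Ly6g had 1 count with cell extract, 17 with LPS and 0 in controls. S100a9 had 8, 7 and 2, Mpo had 19, 20 and 0, and Elane had 2, 2 and 1. S100a8 had 1180, 9060 and 408 counts in the same groups, and why S100a9 lay so far below it was not tested. The part of neutrophils in these genes was not tested. In RNA from whole cultures, fewer cells of a type and less RNA per cell cannot be told apart.

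The Ly6 family of small surface proteins had the lowest median of the 45 lists, −3.47 on the log2 scale, with 5 of 6 tested members lower and none higher. Over all tested genes 11.4% were lower. Ly6i had 18.9, 16.9 and 23.8 CPM with cell extract, against 379, 875, 789 and 1052 CPM with LPS (38.5-fold lower, adjusted p = 1.52e-13). Ly6a, known as Sca-1, had 10.7, 7.13 and 14.5 CPM with cell extract, against 269.9, 194, 253 and 256 CPM with LPS (21.4-fold lower, adjusted p = 1.42e-13). Ly6c2, a surface marker of inflammatory monocytes, was 12.3-fold lower (adjusted p = 2.74e-13). Members of this family resemble each other, so reads may be shared between them.

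Complement genes went in both directions. C1s1, a serine protease that cleaves C4 and C2, had 11.1, 7.13 and 10.5 CPM with cell extract, against 68.4, 119, 113 and 121 CPM with LPS (10.7-fold lower, adjusted p = 2.70e-13). Cfb, which forms the alternative pathway convertase and was named after its values were seen, had 76.1, 68.3 and 84.8 CPM with cell extract, against 803, 1071, 849.7 and 968 CPM with LPS (12-fold lower, adjusted p = 2.05e-09). C3ar1, a receptor for the anaphylatoxin C3a, was 3.04-fold higher (adjusted p = 2.65e-10). In all, 5 of 16 members fell and 3 rose, and 5 rose without LPS replicate 3. The shares over all tested genes were 11.4% lower and 11.0% higher.

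**Figure D2:**
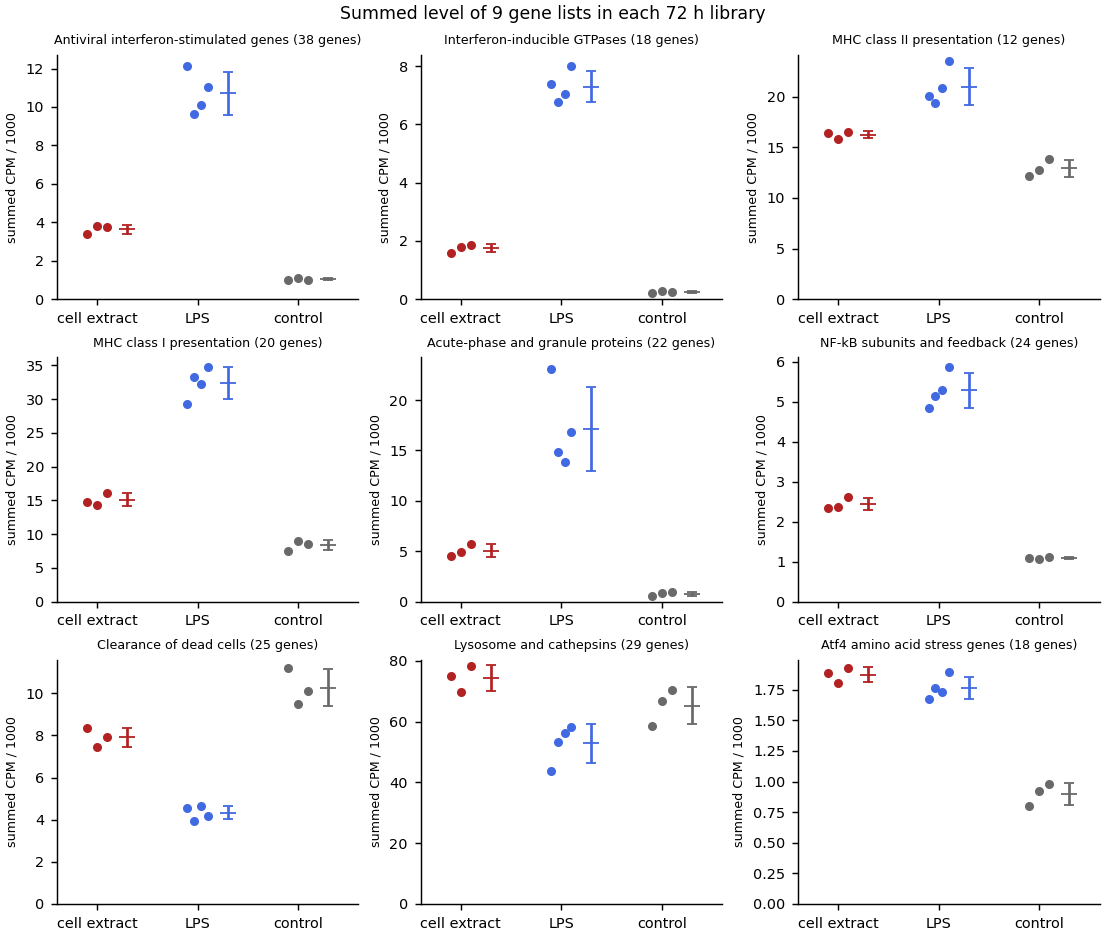
Summed level of 9 gene lists in each 72 h library, in units of 1000 CPM, with cell extract in red, LPS in blue and control in grey; points are libraries and the mark beside them is the mean ± SD. The cell extract libraries lie below LPS and above control in the interferon, GTPase, MHC, NF-kB and acute-phase panels and above LPS and below control for clearance of dead cells, and their mean lies above both for the lysosome and Atf4 lists.

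Genes for the uptake of dead cells were higher with cell extract. Of 21 tested members 12 rose and 4 fell, with a median log2 difference of 0.70, against 11.0% of all genes higher. Mfge8, a bridge between phosphatidylserine on dead cells and integrins, had 1568, 1485 and 1618 CPM with cell extract, against 398, 493, 565 and 506 CPM with LPS (3.17-fold higher, adjusted p = 1.60e-11). C1qc, a chain of the C1q complex that binds dying cells, had 154, 135 and 140.2 CPM with cell extract, against 28.0, 28.0, 39.2 and 34.6 CPM with LPS (4.36-fold higher, adjusted p = 8.71e-10), and controls were higher still at 257 to 341 CPM. Cd36, a scavenger receptor for oxidised lipids and dead cells, was 2.80-fold higher (adjusted p = 7.30e-10). Named after their values were seen, C1qa and C1qb rose 3.51 and 2.79-fold and Gas6, which links dead cells to the Tyro3, Axl and Mertk receptors, rose 4.47-fold. The 4 that fell were Axl, Timd4, Calr and Tgm2. Mertk had 66.2, 71.7 and 78.5 CPM with cell extract, against 149, 64.0, 79.1 and 69.7 CPM with LPS, and the groups overlapped (adjusted p = 0.441). The summed level of the list was 7451 to 8348 CPM with cell extract, 3951 to 4647 CPM with LPS and 9481 to 11222 CPM in controls.

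The other receptors of uptake split, beside 11.0% of all tested genes higher and 11.4% lower. Of 20 tested scavenger and lectin receptors 4 rose, namely Marco, Mrc1, Cd36 and Colec12, and 8 fell. Clec5a, a lectin that signals through the Dap12 adaptor, had 93.3, 108 and 98.1 CPM with cell extract, against 294, 268, 282 and 352 CPM with LPS (3.00-fold lower, adjusted p = 1.20e-09), and 6 of the 8 that fell carry Clec names. All 5 genes of the Fc gamma receptor list, which counts the shared signalling chain Fcer1g, were lower with cell extract by less than 2-fold. They ran from Fcgr2b, the inhibitory receptor (1.33-fold, adjusted p = 0.00653), to Fcgr4 (1.98-fold, adjusted p = 9.37e-04), with Fcer1g 1.76-fold lower (adjusted p = 1.34e-04). The 5 became 3 without cell extract replicate 3, without LPS replicate 4 or without both libraries that stood apart.

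Lysosomal genes leaned upward: 11 of 29 tested rose and 5 fell, with a median log2 difference of 0.36, against 11.0% of all tested genes higher and 11.4% lower. Without both libraries that stood apart the 11 became 8 and the 5 became 3. Leaving out single libraries left 9 to 14 higher. Ctsd, an aspartic protease of lysosomes, had 17507, 16096 and 18451 CPM with cell extract, against 4385, 7783, 7891 and 7536 CPM with LPS (2.51-fold higher, adjusted p = 6.23e-09). Ctsl, a cysteine protease, had 4316, 4379 and 4728 CPM with cell extract, against 1369, 1779, 1980.5 and 1933 CPM with LPS (2.53-fold higher, adjusted p = 5.43e-10). The cholesterol exporters of the lysosome parted. Npc1 in the membrane, named after its values were seen, was 3.18-fold higher (adjusted p = 3.37e-06), whereas its soluble partner Npc2 had 1035, 1024 and 1082 CPM with cell extract, against 1784, 2266, 2134 and 2225 CPM with LPS (2.01-fold lower, adjusted p = 3.67e-08). The summed level was 69785 to 78229.6 CPM with cell extract and 43737 to 58135 CPM with LPS, and 58663 to 70410.3 CPM in controls.

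The lists of this paragraph stand beside 11.0% of all tested genes higher and 11.4% lower. Of 14 tested LXR targets and cholesterol efflux genes 6 rose and 3 fell. Abca9, an ABC transporter, was 5.82-fold higher (adjusted p = 2.75e-09), Mylip, a ligase that degrades the LDL receptor, was 1.76-fold higher (adjusted p = 3.93e-04), and Apoc2, an apolipoprotein that activates lipoprotein lipase, was 2.49-fold lower (adjusted p = 2.56e-05). Of 15 iron genes 4 rose and 4 fell: Tfrc, the transferrin receptor, had 260.3, 238 and 261 CPM with cell extract, against 39.5, 71.8, 86.2 and 90.8 CPM with LPS (3.43-fold higher, adjusted p = 7.98e-07). Steap3, an endosomal ferrireductase, was 2.95-fold higher (adjusted p = 1.02e-05), and Hmox1, which frees iron from haem, had 244, 207 and 248 CPM with cell extract, against 325, 634, 671 and 612 CPM with LPS (2.41-fold lower, adjusted p = 1.83e-06). Among 21 Nrf2 targets 2 rose and 4 fell, the 4 became 1 without LPS replicate 3 or 4 or without cell extract replicate 2 or 3, and the 2 became 0 without cell extract replicate 4 and 1 without LPS replicate 2 or cell extract replicate 2. Slc7a11, the cystine importer, was 1.67-fold lower (adjusted p = 0.0174), a call that was lost without LPS replicate 3 or 4, without cell extract replicate 2 or 3 and without both libraries that stood apart (adjusted p = 0.0554 to 0.0914).

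Glycolytic genes were lower with cell extract: 13 of 23 tested fell and 1, the lactate carrier Slc16a1, rose, with a median log2 difference of −0.55. Ldha, which makes lactate, had 814, 772 and 880.1 CPM with cell extract, against 2208, 2136, 1989 and 2199 CPM with LPS (2.59-fold lower, adjusted p = 6.92e-09). Slc16a3, which exports lactate, had 82.3, 72.4 and 77.9 CPM with cell extract, against 228, 279, 257 and 267 CPM with LPS (3.32-fold lower, adjusted p = 2.30e-09). Hk2, the inducible hexokinase, was 1.88-fold lower (adjusted p = 4.39e-07). The 13 became 8 without LPS replicate 3. Of 30 nuclear-coded subunits of the respiratory chain 8 fell and 2 rose, and the 8 became 5 without cell extract replicate 2 or without cell extract replicate 3. The 2 became 1 without LPS replicate 2, cell extract replicate 2 or 4, or both libraries that stood apart. Of all tested genes 11.4% were lower and 11.0% higher.

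Genes of the amino acid stress response, which Atf4 switches on when charged tRNA runs short or protein folding fails, were higher with cell extract. Of 18 tested 12 rose and 2, Slc7a11 and Nupr1, fell, with a median log2 difference of 0.68. The shares over all tested genes were 11.0% higher and 11.4% lower. Asns, asparagine synthetase, had 124, 118 and 131 CPM with cell extract, against 33.7, 63.6, 57.3 and 69.2 CPM with LPS and 32.0 to 33.8 CPM in controls (2.15-fold higher, adjusted p = 4.15e-08). Psat1, of serine synthesis, had 76.7, 64.2 and 83.3 CPM with cell extract, against 19.3, 41.1, 37.7 and 37.4 CPM with LPS (2.11-fold higher, adjusted p = 4.90e-08). Slc7a5, a carrier of large neutral amino acids, was 2.75-fold higher (adjusted p = 6.60e-07). Chac1, which degrades glutathione, and Aldh1l2, of mitochondrial folate metabolism, were named after their values were seen: Chac1 had 14.1, 10.1 and 14.4 CPM with cell extract, against 6.75, 3.27, 4.76 and 5.94 CPM with LPS (2.73-fold, adjusted p = 2.43e-05), and Aldh1l2 was 4.65-fold higher (adjusted p = 5.97e-06). Atf4 itself had 419, 439 and 436 CPM with cell extract, against 291, 431, 309 and 397 CPM with LPS, and the groups overlapped (adjusted p = 0.221). The summed level of the list hardly parted the groups, at 1805 to 1930.3 CPM with cell extract and 1674 to 1891 CPM with LPS. Slc7a11, which was lower, held 293 to 316 CPM of that sum with cell extract and 407 to 581 CPM with LPS. The 2 members that fell became 1 without LPS replicate 1, 3 or 4 or without cell extract replicate 2 or 3.

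The promoters of Asns and Chac1 are printed for their matches to TGATGNAA, the letters of the composite element that Atf4 binds with C/EBP partners. They cover the same window around the RefSeq start on GRCm38.p6, and capitals mark the match. In Asns (chr6:7693160-7693459, minus strand) the match begins 23 bases before the start, and in Chac1 (chr2:119350992-119351291, plus strand) it lies on the other strand, 193 bases before the start.
Asns: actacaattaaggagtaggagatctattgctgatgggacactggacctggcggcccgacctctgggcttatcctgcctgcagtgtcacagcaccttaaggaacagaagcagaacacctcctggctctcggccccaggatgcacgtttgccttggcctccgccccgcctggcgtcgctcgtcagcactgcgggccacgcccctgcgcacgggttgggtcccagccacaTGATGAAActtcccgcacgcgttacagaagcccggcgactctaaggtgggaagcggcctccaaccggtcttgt
Chac1: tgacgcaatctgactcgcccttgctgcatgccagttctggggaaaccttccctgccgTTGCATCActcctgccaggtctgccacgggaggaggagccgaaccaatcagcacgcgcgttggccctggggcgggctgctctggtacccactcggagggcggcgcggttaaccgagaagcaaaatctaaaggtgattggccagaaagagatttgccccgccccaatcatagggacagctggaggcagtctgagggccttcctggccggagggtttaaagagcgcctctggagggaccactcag

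TGATGNAA was in 6 of 16 promoters of the Atf4 list (37.5%), against 3.02% of all promoters searched, 4.15% of those of genes that were higher with cell extract and 2.80% of those of genes that were lower. This motif was chosen after the values were seen. A TGATGNAA match whose sixth letter is A ends in GAAA, so it can overlap a match to the interferon motif.

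Genes of matrix and repair were called in both directions. Spp1, osteopontin, had 6149, 5790.4 and 5895 CPM with cell extract, against 851, 1005, 1113 and 1171 CPM with LPS and 2539 to 2996 CPM in controls (5.74-fold higher, log2 2.52 ± 0.18 SE, adjusted p = 3.04e-13). Thbs1, thrombospondin 1, had 269, 199 and 222 CPM with cell extract, against 582, 1184, 1086 and 1103 CPM with LPS (4.30-fold lower, adjusted p = 3.14e-10). F10, coagulation factor X, was 3.03-fold lower (adjusted p = 2.46e-08). Of 24 tested genes of this list 4 rose and 4 fell, and of 21 growth and angiogenic factors 3 rose and 5 fell, beside 11.0% higher and 11.4% lower over all tested genes. Hgf, hepatocyte growth factor, had 50.3, 42.4 and 48.3 CPM with cell extract, against 13.5, 13.5, 14.6 and 12.5 CPM with LPS (3.50-fold higher, adjusted p = 8.67e-08), and Igf1, insulin-like growth factor 1, was 3.03-fold higher (adjusted p = 1.23e-07). Inhba, a subunit of activin A, had 129, 141 and 134 CPM with cell extract, against 2015, 612, 592 and 581 CPM with LPS, and its log2 difference of −2.81 was −2.07 without LPS replicate 1.

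Markers of other cell types were measured beside the matrix genes. Their called counts stand beside 11.0% of all tested genes higher and 11.4% lower. Of 18 tested markers of fibroblasts and collagens 7 rose with cell extract and 1, Dcn, fell. Col3a1 had 21.9, 17.3 and 16.7 CPM with cell extract, against 5.78, 3.83, 4.76 and 3.49 CPM with LPS (4.59-fold higher, adjusted p = 1.53e-07), under the controls at 40.2 to 51.9 CPM. Pdgfra was 2.85-fold higher (adjusted p = 9.04e-05). The summed level of the fibroblast list was 488 to 514 CPM with cell extract and 395 to 487 CPM with LPS, against 769.8 to 1618 CPM in controls, and no listed marker was at 0 in any of the 3 groups. For smooth muscle, with 2 of 6 tested markers higher, the sums were 83.3 to 92.3 CPM with cell extract, 73.7 to 90.1 CPM with LPS and 269.9 to 388 CPM in controls. Mesothelial markers summed to 3.00 to 3.92 CPM with cell extract, 4.02 to 7.69 CPM with LPS and 95.3 to 145 CPM in controls. Of 12 tested mesothelial markers 1 fell, Cldn15, which had no count with cell extract and 2.89, 0.280, 0.183 and 0.349 CPM with LPS. Endothelial markers summed to 32.6 to 38.7 CPM with cell extract, 17.8 to 24.1 CPM with LPS and 26.2 to 37.3 CPM in controls, with Vwf higher and Cdh5 lower among 5 tested. Among 7 dendritic cell markers 1, Ccr7, fell. Markers of B cells, of T and NK cells and of eosinophils and mast cells had no called member, and their sums stayed at or under 16.3 CPM in the cell extract and LPS libraries. Counts of 1 or 2 called markers in the lists of this paragraph were not stable: leaving out single libraries put the smooth muscle count between 0 and 3, removed the call of Dcn, Cldn15, Cdh5 or Ccr7, and gave B cells 1 lower member. The part of these cells in the results was not tested.

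**Figure D3:**
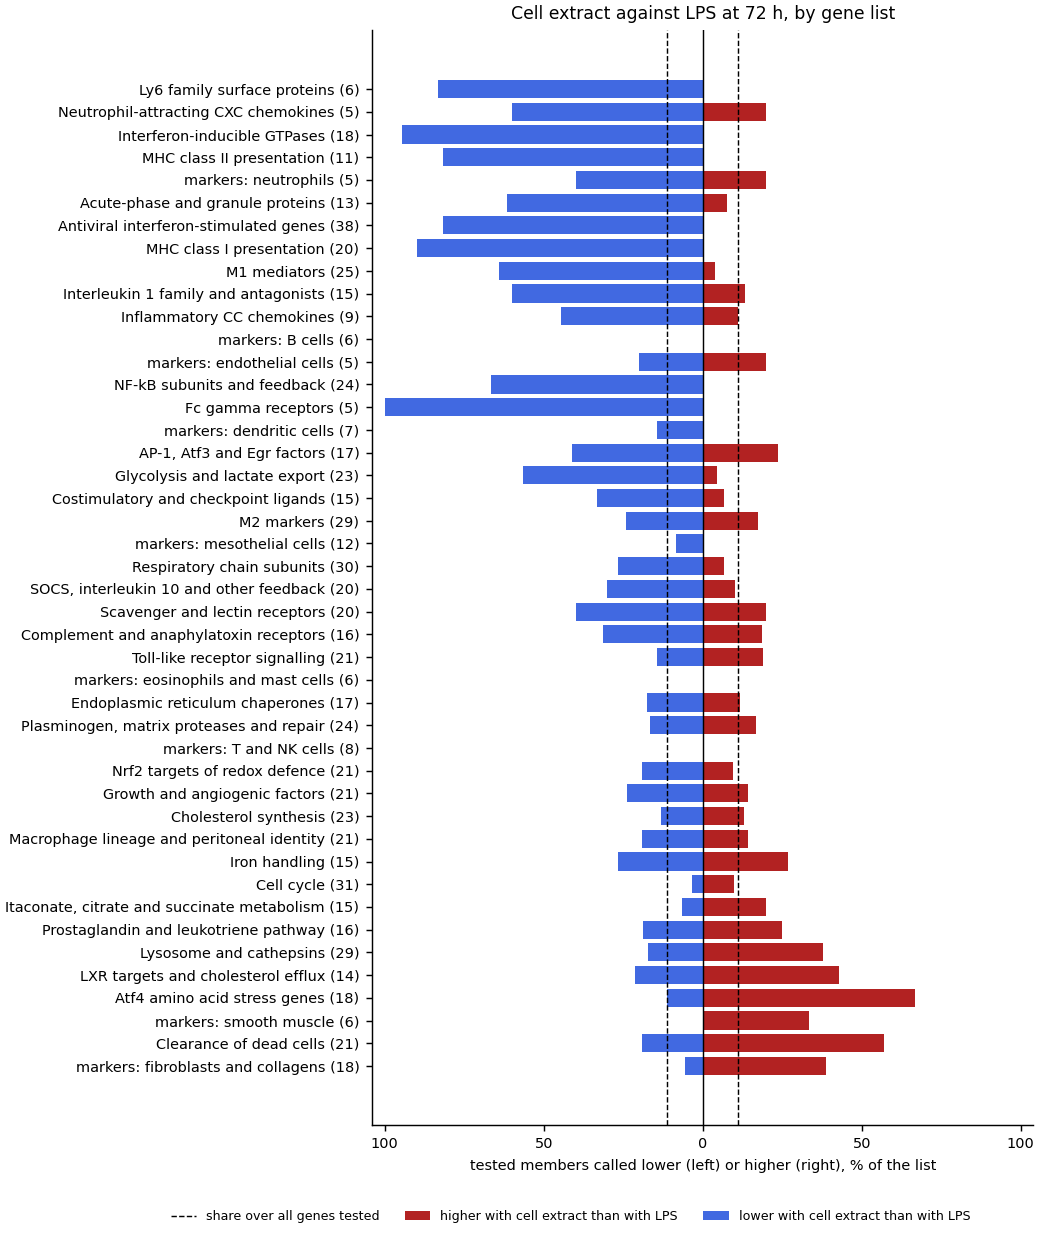
Percent of the tested members of each gene list that were lower with cell extract (left) or higher (right) at 72 h, with dashed lines at the 11.4% and 11.0% found over all tested genes. Interferon, MHC class I and Fc gamma receptor lists reach far past the left line, and the lists for clearance of dead cells and Atf4 genes past the right one.

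Set beside the control cultures, the lists differed in how far each stimulus took them from control. The 2 comparisons with control share the control libraries, so their values are given side by side only. Against control at 72 h, 2058 genes were higher with cell extract (14.2%) and 1769 lower (12.2%), and 2344 were higher with LPS (16.1%) and 2232 lower (15.4%). Antiviral genes had a median log2 difference from control of 1.96 with cell extract, where 36 of 38 rose, and of 3.43 with LPS, where all 38 rose. For MHC class II the medians were 0.36 with cell extract, where 4 of 11 rose, and 2.58 with LPS, where 10 rose. For clearance of dead cells the medians were −0.19 with cell extract, where 4 rose and 6 fell, and −0.95 with LPS, where 4 rose and 13 fell. The Atf4 list lay the other way, with a median of 1.13 and 16 of 18 higher with cell extract, and of 0.47 and 8 higher with LPS. C3ar1 differed from control by log2 −0.16 with cell extract and −1.76 with LPS, and Ctsl by 0.07 with cell extract and −1.27 with LPS. Slc13a3 differed by 6.05 with cell extract and 0.05 with LPS, and Marco by 5.77 with cell extract and 2.25 with LPS.

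Many genes separated cell extract from LPS differently at 72 h and at 8 h. Cell extract against LPS gave 2036 higher (14.0%) and 2198 lower genes (15.1%) at 8 h, with 4 cultures in each group, and 1172 higher (8.06%) and 1274 lower (8.76%) at 24 h, with 3 cell extract and 4 LPS cultures. The comparisons at 8 h and 72 h share no library, and the difference between them was tested as an interaction: the log2 difference was higher at 72 h than at 8 h in 1897 genes (13%) and lower in 1442 (9.92%). Of the genes higher at 72 h, 472 were also higher at 8 h, which is 29.4% of the list at 72 h and 23.2% of that at 8 h. Of the genes lower at 72 h, 628 were also lower at 8 h, which is 38.0% of the list at 72 h and 28.6% of that at 8 h. Opposite calls were made for 190 genes that were higher at 72 h and lower at 8 h (11.8% of the list at 72 h, 8.64% of that at 8 h) and for 177 genes that were lower at 72 h and higher at 8 h (10.7% and 8.69%). These shares of the 72 h lists, 11.8% and 10.7%, lay under those of all tested genes at 8 h, 15.1% lower and 14.0% higher.

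Interferon-stimulated genes were furthest apart early. All 38 antiviral genes were lower with cell extract at 8 h (median log2 −4.55) and at 24 h (−1.99), and 31 were at 72 h (−1.35); the difference between 72 h and 8 h was called in 37, toward a smaller gap. Oasl2 had 30.6 ± 3.88 CPM with cell extract and 923 ± 39.5 CPM with LPS at 8 h (SD, n = 4 each), and 85.4 ± 5.35 CPM with cell extract and 277 ± 11.1 CPM with LPS at 72 h (n = 3 and 4). Cxcl10 had 19.1 ± 2.59 CPM with cell extract and 2877 ± 115 CPM with LPS at 8 h, and 60.7 ± 24.4 CPM with cell extract and 163 ± 26.9 CPM with LPS at 72 h, with a difference of 5.81 ± 1.06 (log2, SE, adjusted p = 4.60e-05). Nos2 was lower with cell extract at all 3 times, by log2 −5.04, −3.67 and −3.57 at 8, 24 and 72 h, and its difference between 72 h and 8 h missed the threshold (1.47 ± 0.59 SE, adjusted p = 0.0664). MHC class II genes went the other way in time, with 3 of 11 lower at 8 h (median log2 −0.29), 9 at 24 h (−1.01) and 9 at 72 h (−1.98), and the difference between 72 h and 8 h was called lower in 7.

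Among the genes that were higher with cell extract at 8 h and lower at 72 h were Cd14, Clec5a, Hmox1 and Cxcl3. Cd14 had 563 ± 27.5 CPM with cell extract and 347 ± 10.2 CPM with LPS at 8 h, 317 ± 39.9 CPM with cell extract and 263 ± 38.6 CPM with LPS at 24 h, and 293 ± 29.6 CPM with cell extract and 1476 ± 122 CPM with LPS at 72 h. Its log2 difference between cell extract and LPS was 3.03 smaller at 72 h than at 8 h (−3.03 ± 0.26 SE, adjusted p = 4.48e-12). Clec5a had 280.4 ± 23.6 CPM with cell extract and 108 ± 15.2 CPM with LPS at 8 h, and 99.8 ± 7.55 CPM with cell extract and 299 ± 37.0 CPM with LPS at 72 h (difference −2.97 ± 0.22, adjusted p = 1.75e-13). Hmox1 had 555 ± 49.3 CPM with cell extract and 172 ± 17.8 CPM with LPS at 8 h, and 233 ± 22.6 CPM with cell extract and 561 ± 159 CPM with LPS at 72 h (difference −2.96 ± 0.25, adjusted p = 6.26e-12). Cxcl3 had 889.7 ± 87.6 CPM with cell extract and 131 ± 21.2 CPM with LPS at 8 h, and 61.9 ± 6.80 CPM with cell extract and 341 ± 119.6 CPM with LPS at 72 h (difference −5.24 ± 0.90, adjusted p = 1.81e-05). Camp, Slc16a3, Apoc2, Maff, Mvd, E2f1, Fcgr3, Slc7a11 and Mdh2 had the same pair of calls, that of Slc7a11 at 72 h with the losses given above. Of the genes that are furthest apart at 72 h, Stfa3 had 1.29 ± 0.199 CPM with cell extract and 1.34 ± 0.738 CPM with LPS at 8 h, and Trem1 had 1.18 ± 0.468 CPM with cell extract and 0.686 ± 0.329 CPM with LPS at 8 h, without a call at that time (adjusted p = 0.889 and 0.18). S100a8 was not called at 8 h (adjusted p = 0.254) and was higher with cell extract at 24 h, at 148 ± 23.1 CPM with cell extract and 60.3 ± 3.82 CPM with LPS (log2 1.29, adjusted p = 6.78e-05).

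The reverse pattern, lower with cell extract at 8 h and higher at 72 h, was seen in Spp1, C3ar1, C1qc, Ctsl, Hgf, Col3a1, Slc7a5, Psat1, Mcm6, Csf3r and Tagln. The calls of Csf3r and Tagln at 72 h were lost without cell extract replicate 2. C3ar1 had 165 ± 6.14 CPM with cell extract and 475 ± 44.7 CPM with LPS at 8 h, 301 ± 33.4 CPM with cell extract and 313 ± 31.3 CPM with LPS at 24 h, and 761 ± 34.1 CPM with cell extract and 252 ± 41.8 CPM with LPS at 72 h. The difference between 72 h and 8 h was 3.13 ± 0.21 (log2, SE, adjusted p = 1.47e-14). Spp1 had 1831 ± 78.2 CPM with cell extract and 3261 ± 460.4 CPM with LPS at 8 h, and 5945 ± 184 CPM with cell extract and 1035 ± 141 CPM with LPS at 72 h (difference 3.35 ± 0.25, adjusted p = 2.08e-13). Slc13a3 had 1.06 ± 0.501, 4.34 ± 1.80 and 29.7 ± 2.25 CPM with cell extract after 8, 24 and 72 h, against 0.723 ± 0.299, 1.08 ± 0.781 and 0.337 ± 0.313 CPM with LPS. Its difference between 72 h and 8 h was 5.32 ± 0.76 (log2, SE, adjusted p = 6.53e-07). The list for clearance of dead cells had 2 members higher and 8 lower at 8 h, 10 higher and 3 lower at 24 h, and 12 higher and 4 lower at 72 h. Nrf2 targets had 17 of 21 members higher at 8 h, 14 at 24 h and 2 at 72 h, and the difference between 72 h and 8 h was called lower in 14. Genes of cholesterol synthesis had 18 of 23 higher at 8 h, 19 at 24 h and 3 at 72 h, with the difference called lower in 14. The 3 at 72 h became 6 without LPS replicate 3 and 5 without LPS replicate 4.

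**Figure D4:**
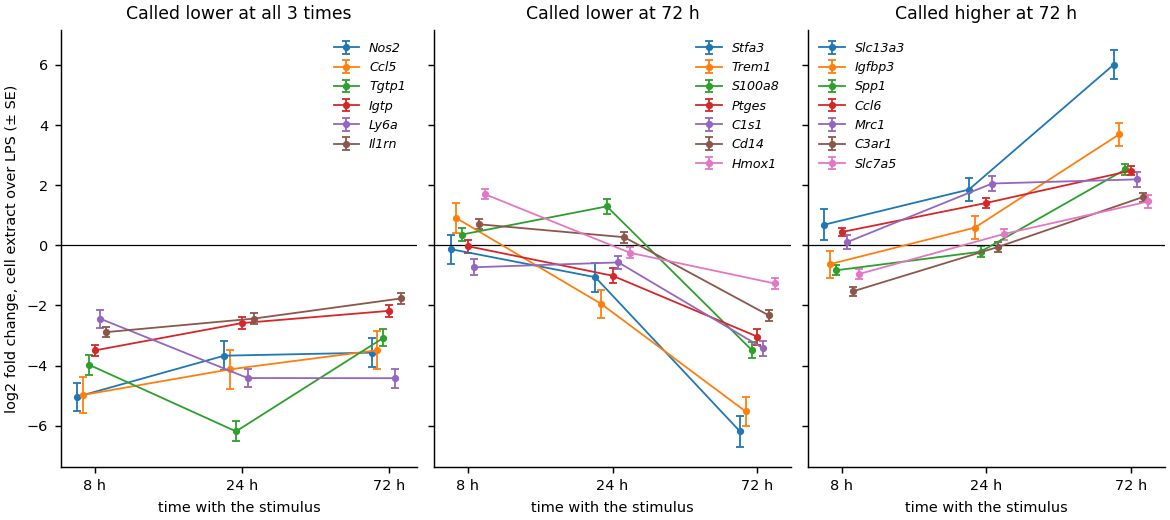
Log2 difference of cell extract over LPS (± SE) at 8, 24 and 72 h for 20 genes in 3 panels: called lower at all 3 times, called lower at 72 h, and called higher at 72 h. The lines in the middle panel lie between −0.73 and 1.70 at 8 h and below −1 at 72 h, and those in the right panel lie between −1.53 and 0.68 at 8 h and above 1 at 72 h.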

How the data were processed

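The 44 libraries hold polyadenylated RNA of mouse peritoneal macrophages, prepared with Diagenode's CATS mRNA-seq v2 kit and read at 1 end over 50 bp (per the labels' protocols). The authors deposited 1 table of raw counts over 46078 Ensembl genes; its 5 summary entries entered neither library sizes nor tests. Of gene counts and ambiguous reads together, the ambiguous reads were 3.37% to 17.3% in the cell extract and LPS libraries at 72 h. Tools named in the submitters' processing notes are TopHat2 2.1.1, Bowtie2, cutadapt, HTSeq, edgeR and DESeq, with build mm10. Which annotation was counted, and whether by strand, is not given in the sources used here, so reads of overlapping genes such as Il1b and Il1bos, Mrc1 and Mir511 or Cxcl10 and Art3 cannot be told apart, and levels of near-identical relatives (the stefins, Ly6, Gbp and H2 genes) are uncertain. Symbols and positions were taken from GENCODE M21 (GRCm38), which held 45143 of the identifiers.

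Genes were kept by filterByExpr with a minimum count of 10 over the 12 groups, which left 14537. After TMM scaling, all 44 libraries entered a single edgeR quasi-likelihood fit with 1 term for each group (edgeR 4.0.16, limma 3.58.1, R 4.3.3), with a common coefficient of variation of 0.219 and 32 residual degrees of freedom. Genes count as called where p, adjusted by Benjamini-Hochberg over the genes of a comparison, is under 0.05. Log2 differences use a prior count of 0.125, SE is the log2 difference divided by the root of its F statistic, and ± on CPM is the SD over cultures. Depth sets the precision of low genes: 1 read is worth 0.964 CPM in LPS replicate 1 and 0.0459 CPM in cell extract replicate 2. Alternatives were size factors by relative log expression, no filter, the replicate number as a block, only the groups compared, each library left out in turn and DESeq2 1.42.0; a fit without both libraries that stood apart was added after seeing the data.

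The genes named were the 12 largest rises and 12 largest falls among called genes with a mean of at least 1 CPM and no overlap between groups, up to 3 members of each gene list with the smallest p, and the polarization genes Arg1, Chil3, Mrc1, Retnla, Cxcl10, Il12b, Il1b, Il6, Nos2 and Tnf. Some genes that this rule names are not reported here. Other list members were named after their values were seen. The comparison, the 45 lists and their members were chosen with earlier results of these data known. Lists are described by counts and medians beside those of all tested genes and were not tested as sets. A list median with genes that had no count in a group set at the floor of 3 counts over that group was the same in every list. Promoters are those of RefSeq (GRCm38.p6).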

Additional observations from a re-analysis of the deposited data

Results flagged for a closer look

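Among the 4 LPS cultures at 72 h, 1 library lay far from the other 3 in 10 of 128 genes and in the summed level of 3 of 45 lists, by the gap to its nearest neighbour divided by the whole range, past the critical value of Dixon's test for 4 values. Chance alone marks about 1 in 20 such groups. LPS replicate 1 was the low one for Susd2 (15.4 CPM), Hmox1 (325 CPM), C1s1 (68.4 CPM), H2-Ab1 (675 CPM), Ctsd (4385 CPM), Thbs1 (582 CPM) and the summed glycolysis list (8508 CPM). It was the high one for Socs3 (319 CPM), Inhba (2015 CPM), Cldn15 (2.89 CPM) and the summed growth and angiogenic factors (2845 CPM). LPS replicate 4 was high for Stfa3 (67.5 CPM) and for the summed interleukin 1 family (3404 CPM). LPS replicate 1 is also the shallowest of the 10 libraries, and the part of depth in these values was not tested.

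The difference between cell extract and LPS changed from 8 h to 72 h, by the interaction test, in the genes below. They were chosen for large differences at 72 h, as polarization genes or for opposite calls at 8 h and 72 h, so the choice largely fixed that they pass and their number says nothing of other genes. Values are the log2 difference at 72 h minus that at 8 h. Among the genes with the largest falls at 72 h it was −6.06 for Stfa3, −6.45 for Fcnb, −6.43 for Trem1, −3.40 for Ly6i, −3.24 for Ubd, −1.98 for Ly6a, −6.11 for Camp, −5.49 for Susd2, −4.56 for 2010005H15Rik, −3.20 for Scin, −6.42 for Gp6 and −2.82 for Tnfrsf9. The sizes for Fcnb, Gp6 and 2010005H15Rik are uncertain, with SE of 1.85, 2.11 and 1.55. At 8 h these genes had 2, 2 and 4 counts over the cell extract libraries and 1, 0 and 2 over the LPS libraries. Among the largest rises the value was 5.32 for Slc13a3, 4.32 for Igfbp3, 2.17 for Marco, 3.30 for Slc27a6, 3.92 for Nlrp1b, 3.92 for Slit3, 3.00 for Cyp7b1, 3.56 for Slc36a2 and 3.12 for Neto2. Among polarization genes it was −2.63 for Il1b, 2.90 for Il6, 5.81 for Cxcl10, 1.96 for Arg1 and 2.08 for Mrc1. Among genes with opposite calls it was −3.03 for Cd14, −2.69 for Slc16a3, −2.97 for Clec5a, −2.19 for Apoc2, −2.96 for Hmox1, −1.47 for Fcgr3, −2.73 for Slc7a11 and −5.24 for Cxcl3, and 1.83 for Ctsl, 2.41 for Slc7a5, 3.13 for C3ar1, 2.86 for Hgf, 2.69 for C1qc, 2.97 for Col3a1, 3.35 for Spp1 and 1.40 for Psat1.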

How the results depend on the processing

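For cell extract against LPS at 72 h, the counts of 1604 higher and 1651 lower genes were 1603 and 1748 with relative log expression factors, 1555 and 1448 with no filter, 1309 and 1201 with only the groups compared, and 1819 and 1969 by DESeq2. Leaving out each library in turn gave 1065 to 2024 higher and 1059 to 1574 lower genes, and leaving out both libraries that stood apart gave 1427 and 997. Of the 3255 calls, 3217 were shared with the relative log expression fit, 3165 with DESeq2, 2305 with only the groups compared and 2207 to 2794 with each library left out. At 24 h, with only the groups compared, 1867 genes were higher and 2223 lower with cell extract than with LPS, in place of 1172 and 1274. For LPS against control at 72 h the same choice gave 1531 higher and 1410 lower, in place of 2344 and 2232. The cause of these shifts was not tested.

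The replicate numbers were not taken to pair the cultures in the main fit. Deviations of same-numbered cell extract and LPS cultures correlated at 0.64, 0.43 and −0.15 across genes for replicates 2, 3 and 4. Pairs of unlike number correlated at −0.56 to 0.20. Deviations were taken from the mean of replicates 2, 3 and 4 in each group, so the values of like and unlike pairs are not independent. Replicates 2 and 3 correlated best with their own number, and replicate 4 did not. What the numbers share was not tested. Replicate 3 had the highest share of ambiguous reads of the cell extract, LPS and control groups at 72 h. With the number as a block, 1664 genes were higher and 1851 lower over all libraries, and 2753 and 2578 with only the groups compared. The block with only the groups compared gave 2083 higher and 2602 lower at 24 h, and 1438 higher and 1207 lower for LPS against control at 72 h.

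No named gene changed direction in any alternative. Il6, Tnf, Il12b and Cxcl10 passed the test with no filter and with the block in only the groups compared, and Chil3 and Retnla passed with no filter. DESeq2 gave no adjusted p for Fcnb, Cldn15, 2010005H15Rik, Scin, Gp6 and Cdh5, which are not counted as lost calls. At 0.964 CPM per read, LPS replicate 1 cannot resolve lower levels; the part of depth in calls among low genes was not tested.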

Other observations

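Transcription factors of the immediate-early class were called in both directions. Of 17 tested AP-1, Atf3 and Egr factors 4 were higher with cell extract than with LPS at 72 h and 7 lower, and the 4 became 2 without cell extract replicate 2. Among all tested genes 11.0% were higher and 11.4% lower. Batf2, which is induced by interferon, had 9.54, 10.5 and 15 CPM with cell extract, against 34.7, 37.8, 36.4 and 38.8 CPM with LPS (3.16-fold lower, adjusted p = 8.44e-06). Lyz2, lysozyme, had 24074, 23386 and 27138 CPM with cell extract, against 8889, 13566, 14967 and 17595 CPM with LPS (1.81-fold higher, adjusted p = 0.0015), with no overlap between the groups. Of 21 tested genes of macrophage lineage and peritoneal identity 3 were higher with cell extract and 4 lower. Leaving out single libraries put the higher count between 2 and 4 and the lower count between 1 and 4.

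Genes of division and of protein folding were called in both directions, beside 11.0% higher and 11.4% lower over all tested genes. Of 31 tested cell cycle genes 3 were higher and 1 lower, among them the replication helicase subunits Mcm2 (1.86-fold higher) and Mcm6 (1.47-fold higher) and the S-phase factor E2f1 (1.84-fold lower), and the 1 became 2 without LPS replicate 2 or 4. Of 17 endoplasmic reticulum genes 2 were higher, Herpud1 (1.82-fold) and Sel1l (1.52-fold), both of the pathway that removes misfolded proteins, and 3 were lower, which became 1 without LPS replicate 4, cell extract replicate 3 or both libraries that stood apart. Of 15 genes of itaconate, citrate and succinate metabolism 3 were higher, with the cytosolic isocitrate dehydrogenase Idh1 at 235, 203 and 225 CPM with cell extract, against 79.0, 149, 129.6 and 131 CPM with LPS (1.79-fold, adjusted p = 2.76e-05), and 1, Mdh2, was lower.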
